A study of Homo sapiens with 30 samples.

Results

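NR4A1, NR4A2 and NR4A3 encode the NR4A family of orphan nuclear receptors, and their transcripts were followed in hCMEC/D3 cells, an immortalised human line derived from brain microvessel endothelium that serves as a laboratory stand-in for the blood-brain barrier. The 3 genes were taken by symbol from a deposited table of 63138 genes. They were chosen by their values in these same libraries, for strong falls with C5a, with IL1b and in some of the vesicle groups, so their differences in those comparisons are given as descriptions with no test. Read counts were measured in 30 libraries, 10 groups of 3, all taken at 12 h. In the 5 direct groups the cells received serum-free medium alone (Control), TNFα at 25 ng/mL (TNF), IL-1β at 10 ng/mL (IL1b), C5a, a fragment of complement, at 50 ng/mL (C5a) or the hormone epinephrine at 200 nM (Epinephrine). In the 5 vesicle groups the same line received extracellular vesicles enriched from the medium of cells treated in these ways, each named by the source treatment with the prefix EV (EV-Control for unstimulated cells), and the labels used here give no vesicle dose. EV-Control therefore holds cells given vesicles from unstimulated cells, and every group is the same single cell line. No label says that the 3 libraries of a group came from separate cultures, so p-values measure the spread between these libraries, which may be technical.

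NR4A receptors bind DNA and activate transcription without a known classical ligand, because bulky side chains fill the pocket where other nuclear receptors hold a hormone. Their activity is set mainly by how much of the protein is made, and their genes are immediate early genes, switched on within minutes by cAMP, calcium, growth factors and inflammatory signals through CREB, MEF2 and SRF. NR4A1 (Nur77) and NR4A2 (Nurr1) can pair with the retinoid X receptors, whereas NR4A3 (NOR1) does so poorly. In endothelial cells the family is known for roles in angiogenesis, in permeability and in restraint or support of inflammatory gene expression.

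In GENCODE 29 on GRCh38, NR4A1 (ENSG00000123358) lies at chr12:52022832-52059507 on the plus strand, NR4A2 (ENSG00000153234) at chr2:156324432-156342348 on the minus strand and NR4A3 (ENSG00000119508) at chr9:99821855-99866891 on the plus strand. The exons of each gene, merged over its transcripts, cover 7295, 3967 and 6314 bases. NR4A1 shares 754 exon bases with an antisense gene, AC025259.3, which held 3 to 24 counts per library, and since strand use in the counting is not given in the sources used here, reads in that stretch cannot be assigned to a strand. The other two members share no exon base with another annotated gene.

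The promoters are shown because the family is induced through CREB, whose binding element TGACGTCA (the cAMP response element, CRE) has the core TGACG. RefSeq promoter windows on GRCh38.p14, from 250 bases before to 50 bases after a start, were found for NR4A1, with 2 starts, and for NR4A3, with 1. Capitals mark the core TGACG or its reverse complement CGTCA, and bases that lie in transcribed exons were left out of the print.
NR4A3, chr9:99821635-99821854, plus strand: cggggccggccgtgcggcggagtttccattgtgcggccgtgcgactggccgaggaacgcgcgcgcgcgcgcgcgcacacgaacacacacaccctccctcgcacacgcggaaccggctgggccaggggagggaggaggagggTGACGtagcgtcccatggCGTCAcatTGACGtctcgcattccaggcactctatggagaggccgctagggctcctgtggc
NR4A1, upstream start, chr12:52022582-52022831, plus strand: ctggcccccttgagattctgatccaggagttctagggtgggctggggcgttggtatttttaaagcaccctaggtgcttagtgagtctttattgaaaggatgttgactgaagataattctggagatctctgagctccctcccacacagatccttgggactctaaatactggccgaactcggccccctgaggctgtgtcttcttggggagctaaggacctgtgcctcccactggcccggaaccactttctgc
NR4A1, downstream start, chr12:52037465-52037714, plus strand: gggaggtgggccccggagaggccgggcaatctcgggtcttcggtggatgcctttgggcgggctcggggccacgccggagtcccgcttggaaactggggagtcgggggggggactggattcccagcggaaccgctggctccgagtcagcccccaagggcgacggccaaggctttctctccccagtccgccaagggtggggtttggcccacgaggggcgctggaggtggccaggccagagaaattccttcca

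The NR4A3 window of 300 bases held 4 copies of the core on either strand, 3 of them in the printed stretch. Relative to the RefSeq start, their first bases lie at -109, -91, -83 and -25. At least 4 copies occurred in 0.313% of the 35116 promoter windows searched and at least 1 in 24.6%. Neither NR4A1 window held the core, which says only that these letters are absent from these stretches. None of the 3 windows held the full element TGACGTCA, found in 1.85% of windows and counted also as a core where present, or AAAGGTCA, the NBRE that NR4A proteins bind as monomers, found in 1.22%. A match is a description of letters and not a site shown to be used.

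Library totals ran from 16643961 to 22112326 counts, and 14340 to 15196 genes had at least 10 counts. Of 14 endothelial markers 13 averaged at least 5 CPM (counts scaled to a library total of 1000000), with CDH5 (VE-cadherin) at 174 to 440 CPM, and EMCN stood at 0 to 0.664 CPM. Of 22 markers of other cell types 7 averaged at least 5 CPM, namely the pericyte markers PDGFRB (34.4 to 88.7 CPM) and RGS5 (4.4 to 11.3), the collagens COL1A1 (56.5 to 123) and COL1A2 (126 to 217), the keratins KRT8 (11.3 to 24.2) and KRT18 (148 to 341) and MBP (87.2 to 123), known from myelin. The pericyte marker KCNJ8 was at 0 to 0.152 CPM, and of the astrocyte markers GFAP was at 0.801 to 5.66 CPM and AQP4 at 0 in every library. The labels give all libraries the same batch number. In bulk RNA, fewer cells expressing a gene and less of its RNA per cell cannot be told apart.

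In untreated cells NR4A1 and NR4A2 were at similar levels per kilobase of merged exon and NR4A3 far below them. NR4A1 stood at 200, 190 and 183 CPM in the Control libraries, or 26.2 ± 1.16 CPM per kilobase of exon (mean ± SD, n = 3, as for all values with ±). NR4A2 stood at 120, 106 and 109 CPM, or 28.1 ± 1.77 CPM per kilobase. NR4A3 stood at 12.6, 12.4 and 12.4 CPM, or 1.98 ± 0.0142 CPM per kilobase, and its Control libraries were nearly alike. Summed per kilobase, the family reached 56.3 ± 2.8, of which NR4A1 made up 46.5% ± 0.896, NR4A2 50.0% ± 0.968 and NR4A3 3.52% ± 0.145. The exon lengths merge all transcripts, so levels per kilobase and these shares depend on the lengths used. Before division by length, NR4A1 (191 ± 8.45 CPM) was above NR4A2 (112 ± 7.02 CPM).

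Across the 10 groups the mean level spanned 23.8-fold for NR4A1, 67.7-fold for NR4A2 and 81.2-fold for NR4A3, and EV-Control was the highest group of each. NR4A1 fell in the order EV-Control (416 ± 56.1 CPM), EV-C5a (358 ± 14.9), EV-TNF (259 ± 18.6), TNF (251 ± 16.4), EV-IL1b (243 ± 24.3), Control (191 ± 8.45), Epinephrine (170 ± 21.8), EV-Epinephrine (148 ± 8.63), C5a (26.8 ± 2.6) and IL1b (17.5 ± 1.16). In that order the libraries of 5 neighbouring pairs overlapped, namely EV-Control with EV-C5a, EV-TNF with TNF, TNF with EV-IL1b, Control with Epinephrine and Epinephrine with EV-Epinephrine. C5a and IL1b were separated from each other and from all other groups.

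NR4A2 followed the order EV-Control (334 ± 36.2 CPM), EV-C5a (272 ± 22.8), TNF (266 ± 44), EV-TNF (147 ± 21.7), EV-IL1b (145 ± 17.5), Control (112 ± 7.02), Epinephrine (97.7 ± 13.1), EV-Epinephrine (58.9 ± 4.34), IL1b (11.1 ± 0.606) and C5a (4.93 ± 0.596). Here the overlapping neighbours were EV-C5a with TNF, EV-TNF with EV-IL1b and Control with Epinephrine. NR4A3 followed the order EV-Control (82.0 ± 54.6 CPM), EV-C5a (51.6 ± 16.7), TNF (19.9 ± 1.71), Control (12.5 ± 0.0899), Epinephrine (10.0 ± 3.09), EV-IL1b (4.54 ± 0.681), EV-TNF (4.21 ± 0.198), EV-Epinephrine (1.98 ± 0.538), IL1b (1.59 ± 0.502) and C5a (1.01 ± 0.509). Its overlapping neighbours were EV-Control with EV-C5a, Control with Epinephrine, EV-IL1b with EV-TNF, EV-Epinephrine with IL1b and IL1b with C5a. IL1b and C5a were the 2 lowest groups of each gene, with IL1b the lowest for NR4A1 and C5a for NR4A2 and NR4A3, and EV-Epinephrine came next in each.

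**Figure D1:**
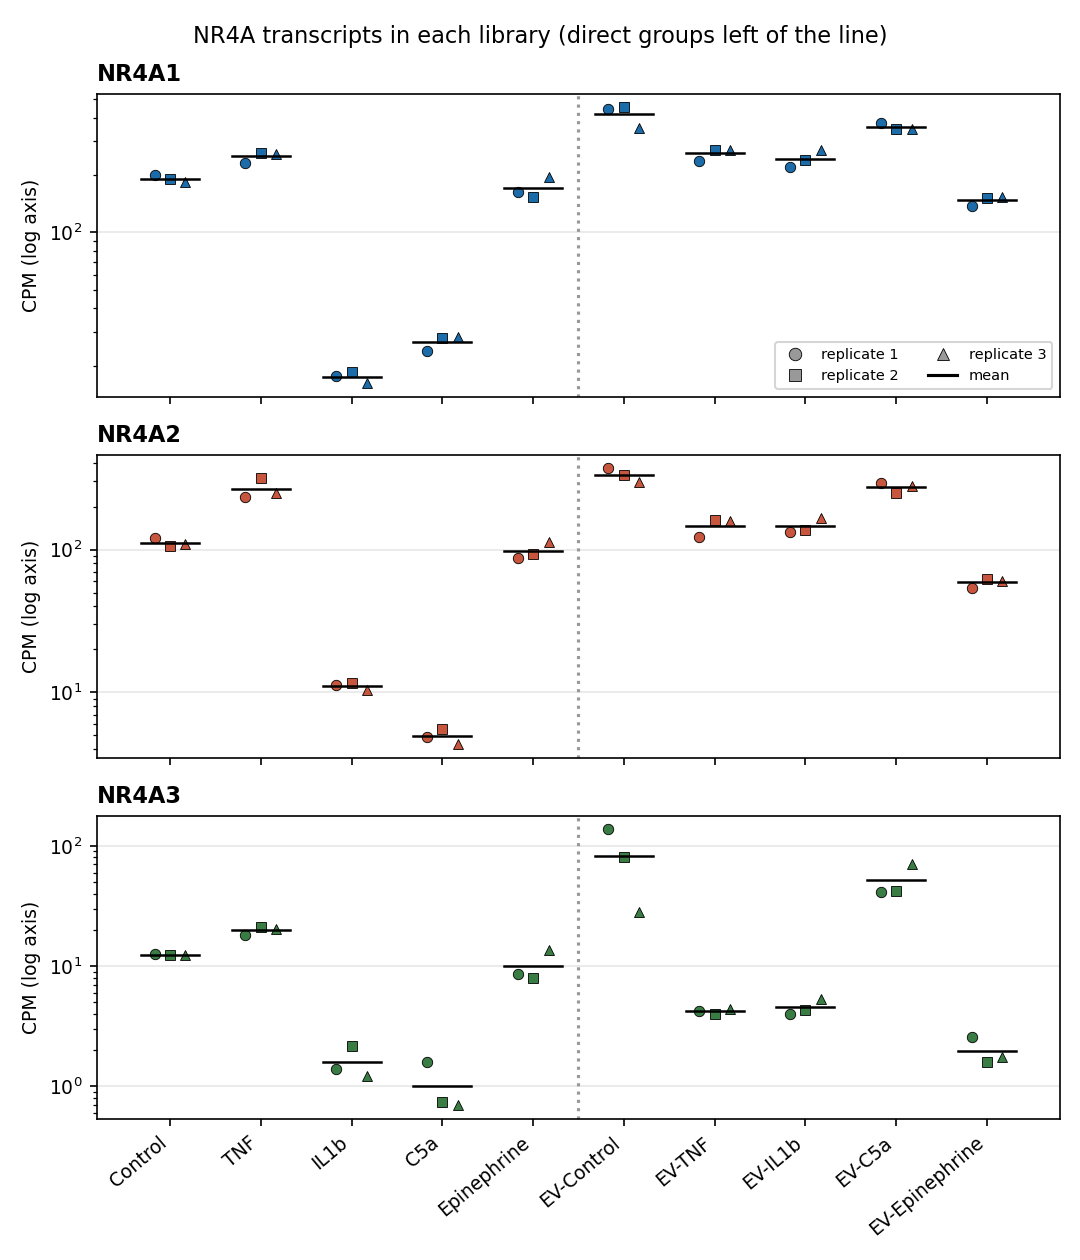
CPM of NR4A1, NR4A2 and NR4A3 (log axis) in each of the 30 libraries, direct groups left of the dotted line and vesicle groups right of it; points are libraries and bars are group means. IL1b and C5a libraries of NR4A1 sit between 16.3 and 28.4 CPM, below all others, and the 3 EV-Control libraries of NR4A3 spread from 28.1 to 137 CPM.

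The first comparison asked what TNFα, a cytokine that activates endothelium, did to the family, and all 3 genes rose. NR4A1 stood at 232, 261 and 259 CPM with TNF, all above the Control libraries. NR4A2 stood at 233, 316 and 250 CPM and NR4A3 at 18.0, 21.3 and 20.5 CPM. The TNF libraries overlapped the Control libraries for none of the 3 genes, a state found for 59.5% of all genes tested. With p-values of the edgeR quasi-likelihood test adjusted by Benjamini-Hochberg over 15908 genes, the log2 fold change of NR4A2 was 1.25 (SE 0.114, adjusted p = 9.04e-07), that of NR4A3 0.68 (SE 0.164, adjusted p = 0.00108) and that of NR4A1 0.39 (SE 0.0757, adjusted p = 0.000192). TNF called 27.5% of all genes higher and 25.3% lower, so 3 of 3 called higher stand beside a background of 27.5%. Scaled by total counts alone, the split of all genes was 14.4% higher and 48.9% lower with the median gene at -0.29, and NR4A1 was then at 0.12 (adjusted p = 0.146 in the same edgeR test), 0.41 above that median. In a fit of all 30 libraries NR4A3 missed the threshold (0.68, SE 0.405, edgeR adjusted p = 0.172). The Control libraries are those on which the genes were chosen, so the TNF comparison is not fully independent of the choice. NR4A2 had the largest log2 fold change of the 3, and its share of the family per kilobase was 63.9% ± 2.74 in TNF beside 50.0% ± 0.968 in Control. The summed markers of other cell types were at 550 to 559 CPM in TNF and 727 to 749 in Control, the endothelial markers at 1350 to 1400 and 1410 to 1470 CPM, and mitochondrial genes took 1.72% to 1.95% and 2.07% to 2.43% of counts. Their part in this result, and in those of the other direct groups below, was not tested.

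Epinephrine acts through adrenergic receptors, which in many cells raise cAMP, and no member of the family passed the test after it. NR4A1 stood at 163, 153 and 195 CPM, NR4A2 at 87.8, 92.8 and 113 CPM and NR4A3 at 8.54, 7.97 and 13.6 CPM. Replicate 3 was the highest Epinephrine library for each gene and lay within or above the Control libraries, so the groups overlapped for all 3, whereas 33.9% of all genes had no overlap. The log2 fold changes were -0.15 for NR4A1 (95% interval -0.31 to 0.01, adjusted p = 0.161), -0.18 for NR4A2 (-0.43 to 0.07, adjusted p = 0.309) and -0.29 for NR4A3 (-0.65 to 0.06, adjusted p = 0.234) in the same edgeR test. Among all genes 13.5% were called higher and 11.8% lower. Without Epinephrine replicate 3, NR4A1 was called lower at -0.26 (adjusted p = 0.00257) and NR4A3 at -0.58 (adjusted p = 0.00825) in that edgeR test, so the outcome for these genes turns on that library. Over all genes, however, replicate 2 differed most from the other Epinephrine libraries, and without replicate 2 the values were -0.08 and -0.15. The Control libraries entered the choice of the genes, which favours falls from Control, so this comparison is not fully independent of the choice either. The endothelial markers summed to 1160 to 1220 CPM and those of other cell types to 644 to 686 CPM, both below Control.

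IL1b was among the comparisons that chose the genes, and its values follow as a description. NR4A1 stood at 17.7, 18.6 and 16.3 CPM, against 183 to 200 CPM in Control. NR4A2 stood at 11.2, 11.6 and 10.4 CPM. NR4A3 stood at 1.39, 2.16 and 1.22 CPM, from 27, 41 and 23 counts. The NR4A1 and NR4A2 libraries were tightly grouped, while those of NR4A3 differed 1.77-fold. All lay far below Control, with log2 differences of -3.44 (SE 0.0931) for NR4A1, -3.32 (SE 0.147) for NR4A2 and -2.96 (SE 0.227) for NR4A3, or 10.8, 10.0 and 7.76 times lower. Counted from the largest fall among 15908 genes, these were places 8, 11 and 19. The background, from which nothing is read here, was 24.0% of genes called higher, 22.6% lower and 56.3% without overlap. The make-up of the family was close to that of Control while its sum per kilobase was at 5.45 ± 0.383. NR4A1 made up 44.1% ± 0.247, NR4A2 51.4% ± 0.902 and NR4A3 4.58% ± 1.14. The endothelial markers summed to 1050 to 1080 CPM and those of other cell types to 632 to 637 CPM, below the 1410 to 1470 and 727 to 749 CPM of Control, and the part of either was not tested.

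C5a, the complement fragment that signals through G protein-coupled receptors, was also used in the choice. NR4A2 stood at 4.86, 5.55 and 4.37 CPM (94, 105 and 87 counts), the lowest of its 10 groups. NR4A1 stood at 23.8, 28.1 and 28.4 CPM, above its IL1b libraries. NR4A3 stood at 1.6, 0.74 and 0.702 CPM, from 31, 14 and 14 counts, with replicate 1 apart from the other two. The log2 differences from Control were -2.82 (SE 0.088) for NR4A1, -4.49 (SE 0.167) for NR4A2 and -3.6 (SE 0.246) for NR4A3, or 7.08, 22.5 and 12.2 times lower. These were places 18, 3 and 6 from the largest fall of 15908 genes, in a comparison with 11.8% of genes called higher, 10.8% lower and 40.4% without overlap. Without C5a replicate 1 the NR4A3 difference was -4.09. The family sum per kilobase was 5.07 ± 0.316, about that of IL1b, but NR4A1 made up 72.3% ± 3.78 of it and NR4A2 24.5% ± 2.57. The endothelial markers summed to 1060 to 1120 CPM, below Control, those of other cell types to 774 to 814 CPM and mitochondrial genes to 2.49% to 2.59% of counts, both above Control, and their part was not tested. TNF, IL1b, C5a and Epinephrine share the Control libraries, so their values are set side by side only.

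Cells given vesicles from unstimulated cells carried more NR4A transcript than cells in medium alone. NR4A1 stood at 443, 453 and 351 CPM in EV-Control. NR4A2 stood at 370, 334 and 297 CPM. NR4A3 stood at 137, 80.7 and 28.1 CPM (2288, 1465 and 513 counts), and even its lowest library was above all Control libraries. In a fit of all 30 libraries the edgeR test, adjusted by Benjamini-Hochberg, gave log2 fold changes of 1.12 for NR4A1 (SE 0.0982, adjusted p = 1.91e-08), 1.58 for NR4A2 (SE 0.126, adjusted p = 4.49e-09) and 2.71 for NR4A3 (SE 0.374, adjusted p = 1.19e-05). All 3 rose without overlap, where 12.1% of 16691 genes were called higher, 9.80% lower and 34.9% did not overlap. The EV-Control libraries also entered the vesicle comparisons that chose the genes, which favours genes high in EV-Control, so these p-values are not independent of the choice. With only the 2 groups in the fit, NR4A3 missed the threshold (log2 fold change 2.71, adjusted p = 0.0708 in the edgeR test). Its estimate was 2.13 without EV-Control replicate 1 and 3.13 without EV-Control replicate 3. The summed level of the 14 endothelial markers was 941 to 983 CPM in EV-Control and 1410 to 1470 CPM in Control, that of the other cell type markers 706 to 721 and 727 to 749 CPM, and the part of either in the result was not tested.

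The remaining 4 comparisons set vesicles from stimulated cells against EV-Control and were all counted as used in the choice. In EV-TNF, NR4A1 stood at 238, 269 and 271 CPM and NR4A2 at 122, 160 and 159 CPM. NR4A3 stood at 4.27, 3.99 and 4.37 CPM, a narrow group far below the EV-Control libraries. The log2 differences were -0.68 (SE 0.104), -1.18 (SE 0.128) and -4.28 (SE 0.592) for NR4A1, NR4A2 and NR4A3, where 5.90% of genes were called higher, 7.42% lower and 27.1% did not overlap. The NR4A3 value was place 3 from the largest fall of 15918 genes.

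EV-IL1b gave nearly the same picture. NR4A1 stood at 221, 239 and 269 CPM, NR4A2 at 133, 137 and 165 CPM and NR4A3 at 3.98, 4.35 and 5.3 CPM. All 9 values lay below those of EV-Control. The log2 differences were -0.77 (SE 0.104), -1.2 (SE 0.129) and -4.17 (SE 0.591), and NR4A3 was the gene with the largest fall, beside 6.49% of genes called higher, 8.14% lower and 28.5% without overlap. In both EV-TNF and EV-IL1b the levels of NR4A1 and NR4A2 stayed above those of Control, while that of NR4A3 was below it. EV-TNF and EV-IL1b share the EV-Control libraries.

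Vesicles from C5a-treated cells left the family closest to EV-Control, although C5a itself gave some of its lowest levels. NR4A1 stood at 376, 349 and 350 CPM, overlapping EV-Control. NR4A2 stood at 292, 247 and 277 CPM, just below the EV-Control libraries. NR4A3 stood at 41.4, 42.5 and 70.9 CPM, inside the EV-Control range. The log2 differences were -0.21 (SE 0.103), -0.29 (SE 0.125) and -0.66 (SE 0.431, 95% interval -1.62 to 0.29), and that of NR4A3 was -0.07 without EV-Control replicate 1 and -1.07 without EV-Control replicate 3. EV-C5a hardly differed from EV-Control in this fit, with 0.0126% of genes called higher, 0.0377% lower and 10.9% without overlap.

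EV-Epinephrine was the vesicle group lowest in every member, although Epinephrine itself had left the family near Control. NR4A1 stood at 138, 152 and 154 CPM and NR4A2 at 54.0, 62.2 and 60.5 CPM, both below the Control libraries as well. NR4A3 stood at 2.59, 1.6 and 1.75 CPM, from 50, 28 and 30 counts. The log2 differences from EV-Control were -1.49 (SE 0.107), -2.5 (SE 0.139) and -5.35 (SE 0.677), or 2.8, 5.66 and 40.7 times lower, and NR4A3 again had the largest fall of all 15918 genes. In this comparison 9.12% of genes were called higher, 10.5% lower and 34.1% did not overlap. Mitochondrial genes took 2.84% to 3.14% of counts in EV-Epinephrine, 2.36% to 2.8% in EV-TNF, 2.52% to 2.8% in EV-IL1b, 2.07% to 2.11% in EV-C5a and 1.99% to 2.49% in EV-Control, and the part of this in the result was not tested. The summed markers of other cell types were 782 to 800 CPM in EV-Epinephrine, 782 to 803 in EV-TNF and 769 to 818 in EV-IL1b, above the 706 to 721 of EV-Control. The endothelial markers summed to 1050 to 1090, 1050 to 1080 and 1040 to 1110 CPM in these groups, also above the 941 to 983 of EV-Control. In EV-C5a the sums were 686 to 705 and 940 to 964 CPM. The part of either sum was likewise not tested.

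**Figure D2:**
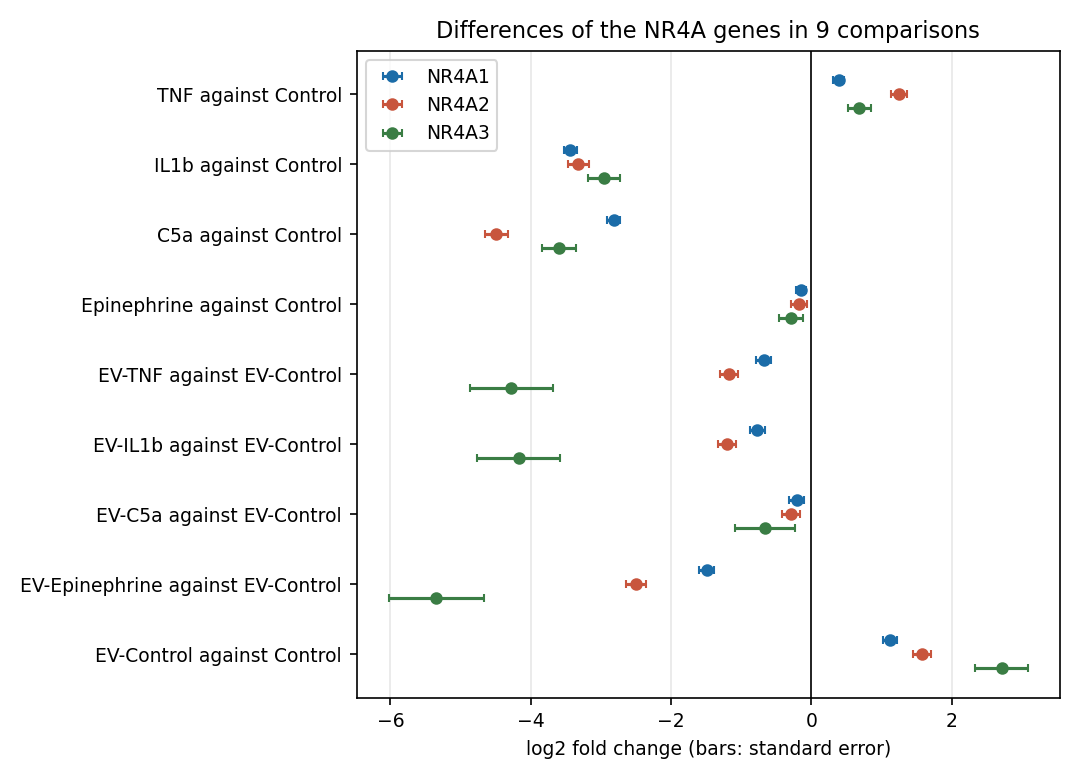
Log2 fold changes of the 3 genes in 9 comparisons, with standard errors as bars; comparisons within the direct or the vesicle groups share their control libraries. TNF and EV-Control lie right of zero for each gene, and NR4A3 lies farthest left in EV-TNF, EV-IL1b and EV-Epinephrine with the widest bars.

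Ratios between members within a library do not depend on how libraries are scaled. Per kilobase, the log2 ratio of NR4A1 to NR4A2 lay between -0.22 and -0.05 in Control (-0.10 ± 0.06), Epinephrine (-0.08 ± 0.09), EV-TNF (-0.05 ± 0.12), EV-IL1b (-0.13 ± 0.05) and IL1b (-0.22 ± 0.02). It was lowest in TNF, at -0.88, -1.15 and -0.82, and highest in C5a, at 1.41, 1.45 and 1.82, where NR4A1 was 2.95 times NR4A2. IL1b and C5a, both among the lowest groups of each gene, thus differed in this ratio with no overlap. EV-Control (-0.57 ± 0.11) and EV-C5a (-0.48 ± 0.09) leaned towards NR4A2 and EV-Epinephrine (0.45 ± 0.03) towards NR4A1. The exon lengths merge all transcripts, so the level of a ratio depends on the lengths used while differences between groups do not, as long as the same transcripts are made.

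The share of NR4A3 separated the vesicle groups. It was 7.96% ± 4.44 of the family per kilobase in EV-Control and 6.48% ± 1.97 in EV-C5a, and 0.917% ± 0.125 in EV-TNF, 1.02% ± 0.0398 in EV-IL1b and 0.896% ± 0.305 in EV-Epinephrine. Among the direct groups its means ran from 3.03% to 4.58%, with single libraries from 2.18% in C5a to 5.89% in IL1b. The lowest EV-Control library, at 3.49%, lay within that range. The family sum per kilobase was 154 ± 24.5 in EV-Control, 126 ± 7.86 in EV-C5a, 73.3 ± 8.02 in EV-TNF, 70.6 ± 7.8 in EV-IL1b and 35.5 ± 2.17 in EV-Epinephrine.

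**Figure D3:**
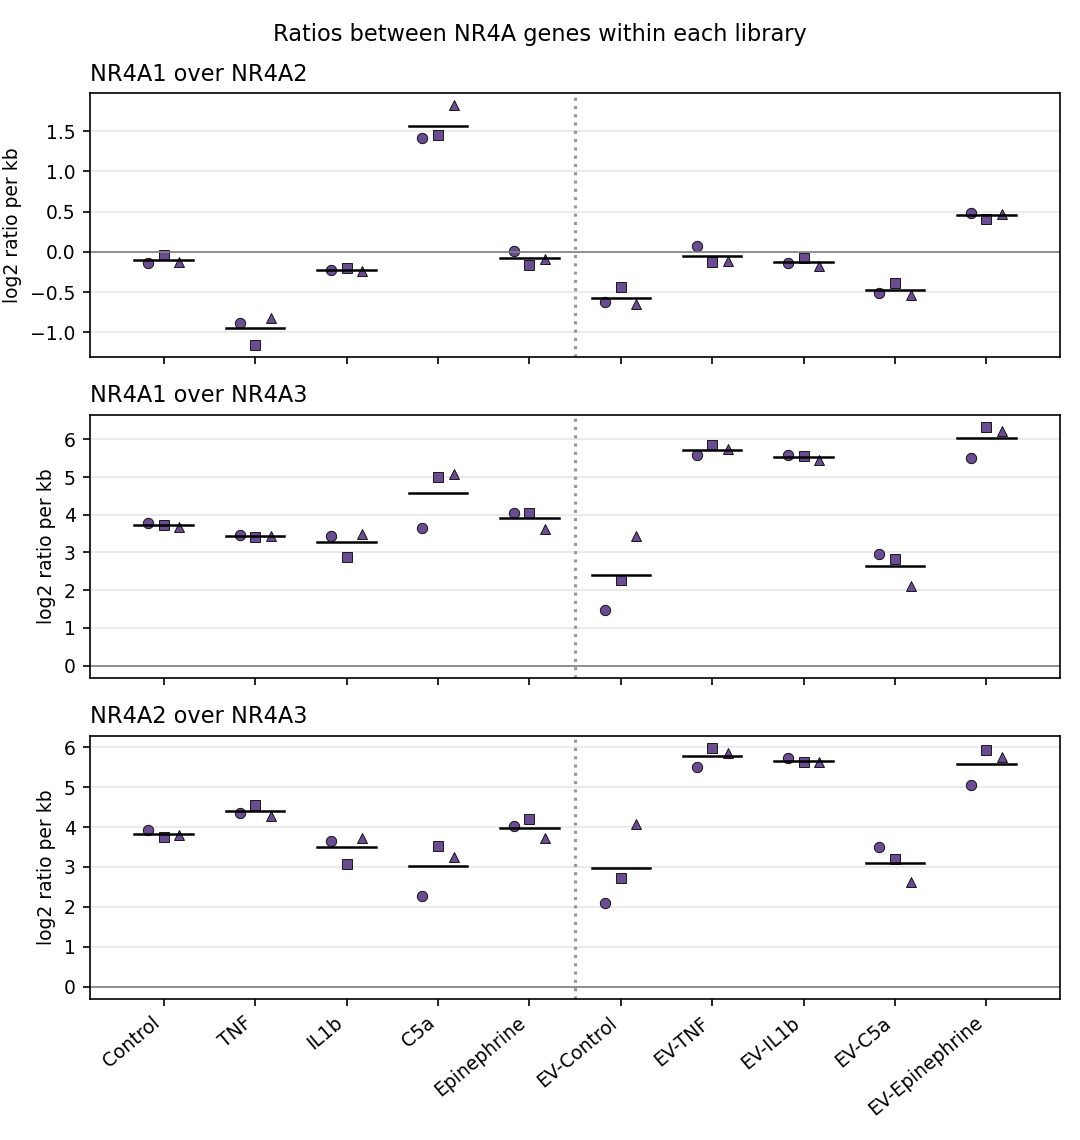
Log2 ratios per kilobase of exon between NR4A genes within each library (points, shaped by replicate number) with group means as bars, direct groups left of the dotted line. NR4A1 over NR4A2 peaks in C5a at 1.41 to 1.82, and the ratios to NR4A3 are highest in EV-TNF, EV-IL1b and EV-Epinephrine.

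The EV-Control libraries differed from each other in the family and in related genes. NR4A3 differed 4.89-fold between its highest and lowest EV-Control library, and of 10589 genes with at least 5 CPM there, 4 were as spread, NR4A3 included. The median gene differed 1.11-fold. NR4A1 and NR4A2 differed 1.29-fold and 1.24-fold, and replicate 3 was lowest in each of the 3 genes. PDE4D (29, 21.5 and 15 CPM), a phosphodiesterase that breaks down cAMP, and NFIL3 (168, 134 and 107 CPM), a leucine zipper repressor, had the NR4A3 order. FOS ran the other way, at 44.2, 104 and 355 CPM, as did EGR1 at 87.8, 179 and 293 CPM and JUN at 318, 434 and 811 CPM. Of 26 immediate early genes with at least 5 CPM in EV-Control, 7 were highest in replicate 1 and lowest in replicate 3, the order of NR4A3, and 16 had the opposite order, that of FOS. The share of all genes with either order was not counted, so nothing particular to this list is read from these counts. Replicates 1 and 3 were also the EV-Control libraries that differed most over all genes.

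**Figure D4:**
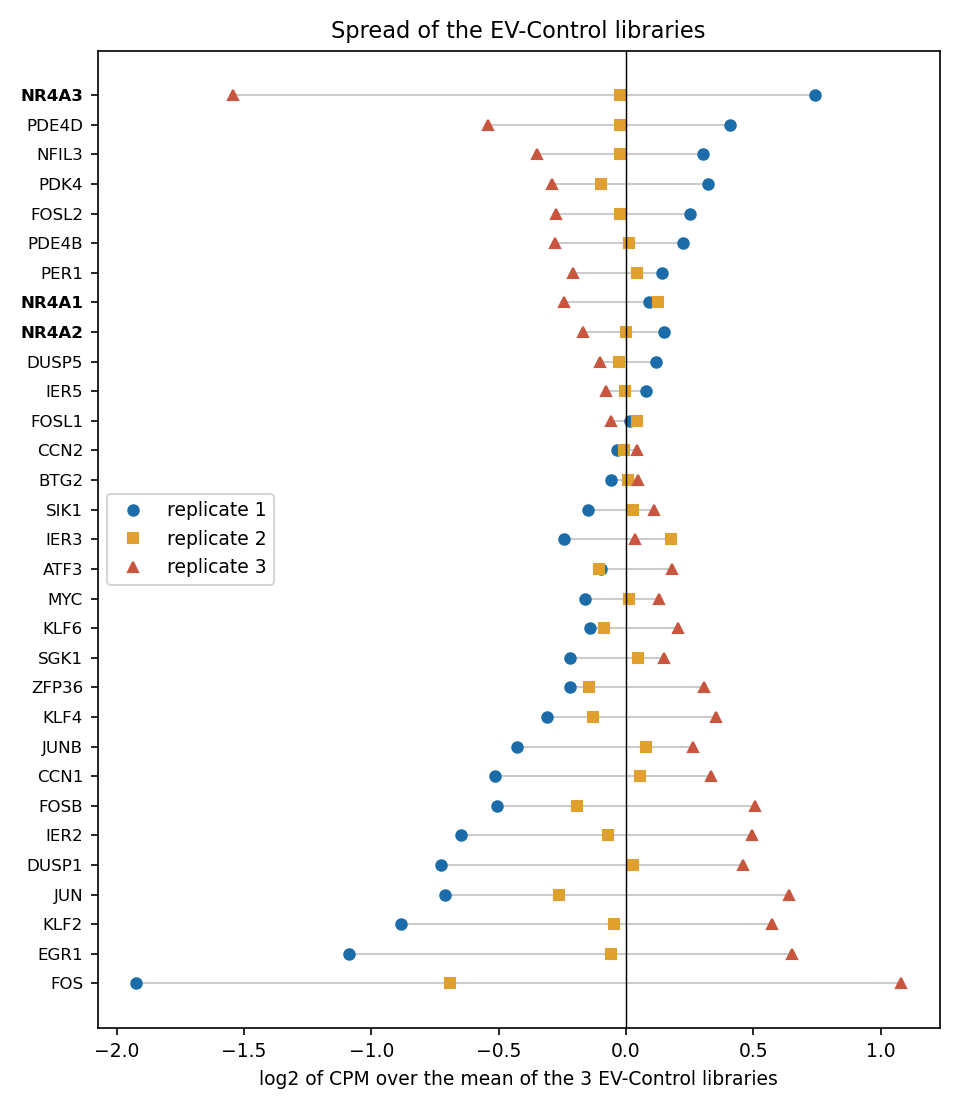
Log2 of each EV-Control library's CPM over the mean of the 3 EV-Control libraries, for the NR4A genes (bold), immediate early genes, SIK1 and PDK4 with a mean of at least 5 CPM. NR4A3 at the top has replicate 1 highest and replicate 3 lowest, and FOS at the bottom has the opposite order.

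The genes of the route that induces the family, 32 kinases, cofactors and transcription factors of the cAMP, calcium and SRF pathways of which 31 were tested, were called in both directions. By the adjusted edgeR test 8 were higher and 12 lower with TNF, or 25.8% and 38.7% beside 27.5% and 25.3% of all genes, and 5 were higher without TNF replicate 3. Scaled by total counts, the TNF split was 3 and 20. With IL1b 6 and 13 were called (19.4% and 41.9%, beside 24.0% and 22.6%), with C5a 6 and 7 (19.4% and 22.6%, beside 11.8% and 10.8%) and with Epinephrine 5 and 10 (16.1% and 32.3%, beside 13.5% and 11.8%). The shares of higher calls thus lay near those of all genes with TNF and Epinephrine. In the vesicle groups the counts were 1 and 5 for EV-TNF (3.23% and 16.1%, beside 5.90% and 7.42% of all genes). For EV-IL1b they were 2 and 3 (6.45% and 9.68%, beside 6.49% and 8.14%), near the shares of all genes. For EV-C5a they were 0 and 0 (beside 0.0126% and 0.0377%). For EV-Epinephrine 3 and 9 of the 31 were called (beside 9.12% and 10.5%). EV-Control against Control gave 6 and 6 (19.4% each, beside 12.1% and 9.80%). For EV-C5a, DESeq2 also called 0, and 1 higher and 4 lower had an unadjusted p under 0.05. The 5 lower with EV-TNF were 3 without any 1 EV-Control library or EV-TNF replicate 1 and 2 without EV-TNF replicate 2, and the 3 higher with EV-Epinephrine were 1 without EV-Control replicate 2 or EV-Epinephrine replicate 3. The 2 higher with EV-IL1b were 1 without EV-Control replicate 2 or EV-IL1b replicate 1 or 2, and with EV-C5a 1 was lower without EV-Control replicate 3. In the fit of all 30 libraries the 9 lower with EV-Epinephrine were 4. SIK1, a kinase that is itself induced by CREB and restrains CREB's CRTC cofactors, fell from 144 ± 3.09 to 23.4 ± 1.6 CPM with IL1b (log2 -2.62, adjusted p = 1.75e-25 in edgeR) and to 16.0 ± 1.3 with C5a (-3.16, adjusted p = 1.36e-26). It also fell with Epinephrine (-0.98, edgeR adjusted p = 8.02e-14) and with EV-Epinephrine (-1.41, edgeR adjusted p = 1.22e-06), and its counts are uncertain because a near-identical copy exists in the reference. HDAC5 and MEF2D, a repressor and the factor it binds, fell by 0.91 and 0.65 with IL1b and by 0.87 and 0.67 with C5a on the log2 scale. CREB1 itself was higher by 0.68 with TNF, 0.5 with IL1b, 0.24 with C5a and 0.25 with Epinephrine on the log2 scale. Against EV-Control it was higher by 0.28 with EV-TNF, 0.31 with EV-IL1b and 0.28 with EV-Epinephrine. Its part in the NR4A levels was not tested.

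Of 31 immediate early genes that respond to the same signals, 30 were tested. With TNF 18 rose and 3 fell, or 60.0% and 10.0% beside 27.5% and 25.3% of all genes. The median log2 fold change of the list was 0.64 beside -0.01 over all genes. With total-count scaling the TNF counts were 15 and 6. With IL1b 5 rose and 18 fell (16.7% and 60.0%, beside 24.0% and 22.6%), with a median of -0.56. With C5a 5 rose and 19 fell (16.7% and 63.3%, beside 11.8% and 10.8%), with a median of -0.68. Epinephrine gave 10 and 8 (median 0.11), or 33.3% and 26.7% beside 13.5% and 11.8% of all genes. The 10 were 6 without Control replicate 2 or Epinephrine replicate 3, and the 8 were 5 without Epinephrine replicate 1. ATF3, a CREB family factor, fell from 232 ± 42.3 to 50.0 ± 3.71 CPM with IL1b (-2.2) and to 37.4 ± 3.66 with C5a (-2.62), and DUSP5, a phosphatase of ERK kinases, fell by 1.78 and 2.1 on the log2 scale. JUN moved against the NR4A genes in both, by 1.12 with IL1b and 0.85 with C5a, as did EGR1, by 0.5 and 1.24. Against Control, EV-Control raised 15 of the 30 and lowered 2 (50.0% and 6.67%, beside 12.1% and 9.80% of all genes), with a median of 0.45. That pair was 18 and 1 without EV-Control replicate 1, 15 and 4 without EV-Control replicate 3, with 1 lower also without Control replicate 1 or EV-Control replicate 2, and 10 and 0 with only the 2 groups in the fit.

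Against EV-Control, 16 immediate early genes fell and 0 rose with EV-Epinephrine (median -0.52), or 53.3% and 0.00% beside 10.5% and 9.12% of all genes. Of the 30 tested, 5 rose and 9 fell with EV-TNF (median -0.16), beside 5.90% and 7.42% of all genes. With EV-IL1b 4 rose and 8 fell (median -0.1), or 13.3% and 26.7% beside 6.49% and 8.14%. EV-C5a had 0 called in either direction in edgeR and in DESeq2, beside 0.0126% and 0.0377% of all genes in edgeR. At an unadjusted p under 0.05, 2 were higher and 5 lower with EV-C5a. DESeq2 called 1 higher with EV-Epinephrine. Without EV-Control replicate 3 the numbers that rose were 9 with EV-TNF, 9 with EV-IL1b and 2 with EV-Epinephrine, and 5 fell and 1 rose with EV-C5a, so these counts turn on that library. With EV-TNF 3 rose without EV-Control replicate 1 or 2 or any 1 EV-TNF library, and with EV-IL1b 2 rose without EV-Control replicate 2 and 1 without EV-IL1b replicate 3. FOS was at 168 ± 165 CPM in EV-Control and rose to 694 ± 219 with EV-TNF (log2 2.04, edgeR adjusted p = 0.043), opposite to NR4A3. With EV-Epinephrine the falls included FOSB (-2.5), ATF3 (-2.31), NFIL3 (-1.62) and KLF4 (-1.55).

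Of 14 partners and coregulators 13 were tested. RXRA, the heterodimer partner of NR4A1 and NR4A2, fell with TNF (log2 -0.36), IL1b (-0.28) and Epinephrine (-0.16). The list counts were 1 higher and 7 lower with TNF (7.69% and 53.8%, beside 27.5% and 25.3% of all genes). With IL1b they were 2 and 4 (15.4% and 30.8%, beside 24.0% and 22.6%) and with C5a 0 and 0 (beside 11.8% and 10.8%). With Epinephrine they were 1 and 3 (7.69% and 23.1%, beside 13.5% and 11.8%). The 7 lower with TNF were 4 without TNF replicate 1 and the 1 higher was 2 without Control replicate 1. With IL1b 1 was higher without Control replicate 1, and with C5a 1 was lower without Control replicate 3. The 3 lower with Epinephrine were 0 without Control replicate 1 and 1 without Epinephrine replicate 3, and the 1 higher was 0 without Control replicate 1 or 2 or Epinephrine replicate 1 or 3 and 2 without Epinephrine replicate 2, so these calls turn on single libraries. With C5a DESeq2 also called 0, and 3 higher and 1 lower had an unadjusted p under 0.05 in edgeR. The vesicle comparisons called 0 to 2 partners each. EV-TNF had 1 and 0 (7.69% and 0.00%, beside 5.90% and 7.42% of all genes) and EV-IL1b 1 and 0 (7.69% and 0.00%, beside 6.49% and 8.14%). EV-C5a had 0 and 0 (beside 0.0126% and 0.0377%) and EV-Epinephrine 2 and 0 (15.4% and 0.00%, beside 9.12% and 10.5%). EV-Control against Control had 2 and 0 (15.4% and 0.00%, beside 12.1% and 9.80%). Leaving out single libraries moved each of these partner counts by at most 1. Of 23 genes that textbooks or studies in other tissues give as NR4A targets, 10 were tested, and 6 rose and 1 fell with TNF (27.5% and 25.3%), 4 and 2 with IL1b (24.0% and 22.6%), 2 and 3 with C5a (11.8% and 10.8%) and 4 and 0 with Epinephrine (13.5% and 11.8%), with the shares over all genes in parentheses. The 2 lower with IL1b were 1 without Control replicate 1 or 2 or IL1b replicate 2. The vesicle counts of the targets were 2 and 4 for EV-TNF (5.90% and 7.42%) and 2 and 4 for EV-IL1b (6.49% and 8.14%). They were 0 and 0 for EV-C5a (0.0126% and 0.0377%) and 1 and 3 for EV-Epinephrine (9.12% and 10.5%). For EV-Control against Control they were 5 and 1 (12.1% and 9.80%). Each of these target counts moved by at most 1 without a single library. For EV-C5a, edgeR had 1 partner higher and 3 targets lower at an unadjusted p under 0.05, and DESeq2 called 0 in both lists.

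PDK4, a kinase that shuts off pyruvate dehydrogenase and is a reported NR4A target in muscle, had levels like those of the NR4A genes in most groups but not in Epinephrine. It fell from 75.8 ± 7.13 to 10.6 ± 1.72 CPM with IL1b (log2 -2.83, edgeR adjusted p = 1.48e-13) and to 20.3 ± 1.34 CPM with C5a (-1.89, edgeR adjusted p = 1.16e-10). With Epinephrine it rose to 166 ± 21.5 CPM (1.14, edgeR adjusted p = 1.63e-08). NFKBIA, which encodes the inhibitor of NF-κB, rose with TNF (1.37) and fell with C5a (-1.92) and EV-Epinephrine (-1.98). TNFSF10, the death ligand TRAIL, rose from 17.6 ± 1.88 to 276 ± 11.5 CPM with TNF (3.97).

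Of 45 other nuclear receptors on the list, 26 were tested among the direct groups. With TNF 7 were higher and 10 lower (26.9% and 38.5%, beside 27.5% and 25.3% of all genes), and 4 and 17 with total-count scaling. With IL1b the counts were 1 and 10 (3.85% and 38.5%, beside 24.0% and 22.6%), with C5a 1 and 6 (3.85% and 23.1%, beside 11.8% and 10.8%) and with Epinephrine 4 and 4 (15.4% each, beside 13.5% and 11.8%). The 4 higher with Epinephrine were 2 without Control replicate 3 or Epinephrine replicate 1. The 4 lower were 1 without Control replicate 1 or 2 and 2 without Epinephrine replicate 1 or 3, and with only the 2 groups in the fit 2 were higher and 1 lower. The 1 higher with IL1b was 2 without Control replicate 2 or IL1b replicate 2. NR1D1 (REV-ERBα), a repressor in the circadian clock, was the largest faller on the list with IL1b (-1.44), C5a (-2.01) and Epinephrine (-1.12) and with EV-Epinephrine (-1.4). Of 27 tested in the vesicle fit, 0 were higher and 2 lower with EV-TNF (0.00% and 7.41%, beside 5.90% and 7.42% of all genes). With EV-IL1b 2 and 2 were called (7.41% each, beside 6.49% and 8.14%) and with EV-C5a 0 and 0 (beside 0.0126% and 0.0377%). With EV-Epinephrine 5 and 2 were called (18.5% and 7.41%, beside 9.12% and 10.5%). In EV-Control against Control 6 of 28 were higher and 2 lower (21.4% and 7.14%, beside 12.1% and 9.80%). The 5 higher with EV-Epinephrine were 3 without EV-Control replicate 2 or EV-Epinephrine replicate 1 or 2, the 2 lower were 4 without EV-Control replicate 3, and the 0 higher with EV-TNF were 2 without EV-Control replicate 3. Leaving out single libraries moved the other vesicle counts of this list by at most 1. In EV-C5a 2 were lower at an unadjusted p under 0.05 in edgeR and DESeq2 called 0. The median log2 fold changes of the list ran near 0, at -0.06 with IL1b and 0.00 with C5a.

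Over the 10 group means of log2 CPM, NR4A1 and NR4A2 were most alike (Pearson r = 0.962), then NR4A2 and NR4A3 (0.846) and NR4A1 and NR4A3 (0.782). These coefficients describe 10 points that share libraries and were chosen for part of the pattern. Among 764 genes with at least 5 CPM in the highest group and an SD of group means of at least 0.5, the 8 most like the mean NR4A profile were APOLD1 (0.987), ITPRIP (0.986), ZNF295-AS1 (0.984), TIPARP (0.979), NFIL3 (0.974), TSC22D3 (0.973), KLF9 (0.972) and MAFF (0.971). With Spearman's coefficient 4 of the 8 were again among the first 8, and with total-count scaling 6. APOLD1, an endothelial early response gene, stood at 133 CPM in Control, 39.8 in IL1b, 45.3 in C5a, 241 ± 43.9 in EV-Control and 95.8 ± 1.71 in EV-Epinephrine. MAFF, a small Maf factor, stood at 230, 52.0, 32.2, 331 ± 16.8 and 108 ± 3.95 CPM in the same groups. TSC22D3 encodes the glucocorticoid-induced leucine zipper GILZ, and TIPARP an ADP-ribosyltransferase induced by the aryl hydrocarbon receptor. ZNF295-AS1 is an antisense transcript, so its counts may hold reads of its partner gene. By the most in any of a gene's promoter windows, SIK1 had 3 copies of the core TGACG, TSC22D3 and MAFF 2, APOLD1, TIPARP, NFIL3 and PDK4 1, and KLF9, ITPRIP and ZNF295-AS1 none. MAFF also held 1 full element, which reads the same on both strands and so counts as 2 cores by itself, and TSC22D3 had 4 windows in which to find one. At least 2 copies occurred in 6.02% of all windows and at least 3 in 1.40%.

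**Figure D5:**
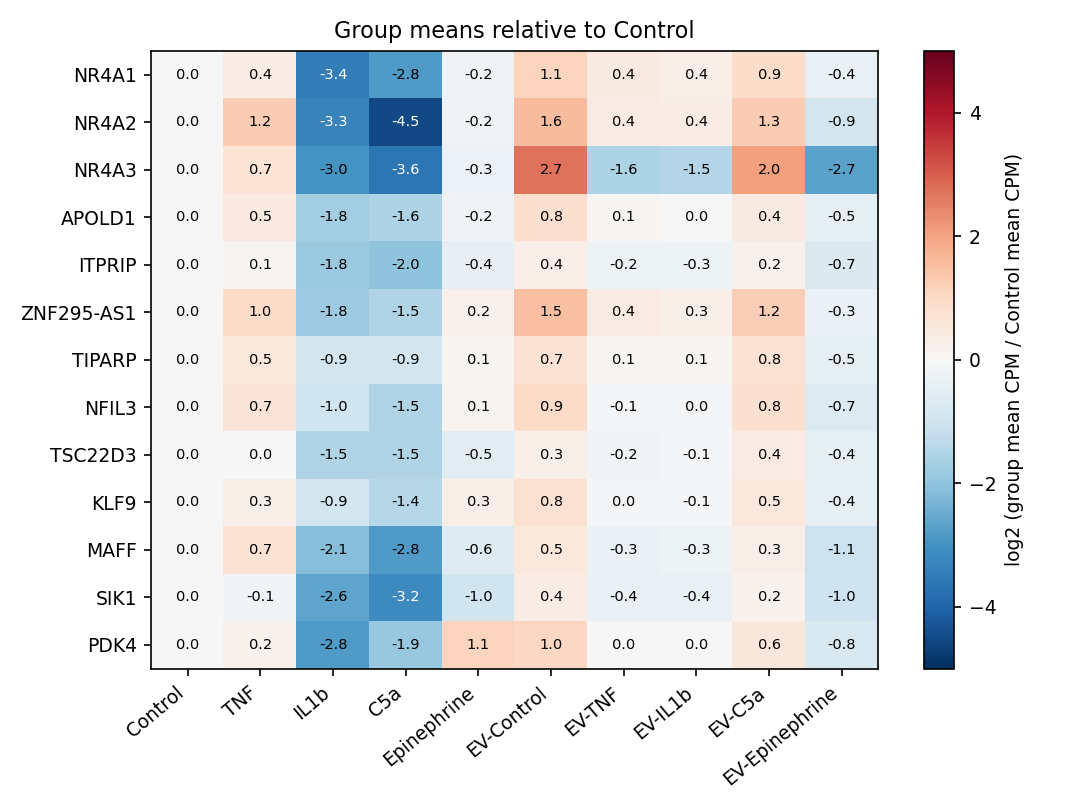
Log2 of group mean CPM over the Control mean for the NR4A genes, the 8 genes with the most similar profile, SIK1 and PDK4 (rows) in the 10 groups (columns), with the value in each cell. IL1b and C5a columns are negative for every row, and PDK4 is the row with the highest value in Epinephrine.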

How the data were processed

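RNA of 30 hCMEC/D3 libraries was sequenced. By the labels' protocols, cells were homogenised with QIAshredder, RNA was purified with the RNeasy kit and 1 ng went into NEBNext Ultra libraries. The deposited table holds raw counts per Ensembl gene with no normalization, and the submitters' processing notes name FastQC, STAR, DESeq2, R 4.4.1 and hg38 without roles. The counting program, the annotation release and the use of strand are not given in the sources used here. Lines without a gene ID (0.000789% to 0.00164% of a library) were left out, and 3 repeated gene IDs were kept once, leaving 63138 genes.

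Statistics used edgeR 4.0.16 under R 4.3.3, with filterByExpr, trimmed mean of M-values (TMM) scaling, and the robust quasi-likelihood test, two-sided, with Benjamini-Hochberg adjustment over all genes of a comparison and a threshold of 0.05. The direct comparisons came from a fit of 15 libraries (15908 genes), the vesicle comparisons from a fit of 15 (15918) and EV-Control against Control from all 30 (16691). All 3 NR4A genes passed the filter in each fit. CPM are counts over the library total times the TMM factor over all 30 libraries. Values per kilobase use merged GENCODE 29 exons, ratios between members a prior count of 0.5. Intervals are 95% intervals from the t distribution of the fit. No molecular identifiers are described, so counting error treats duplicate reads as molecules. The floor of a count of 0 is 3 counts.

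The NR4A genes and the gene lists were chosen with earlier results of these data known. The lists were inducing pathway (32 genes), immediate early genes (31), partners and coregulators (14), reported targets (23), other nuclear receptors (45), endothelial markers (14) and markers of other cell types (22), written from general knowledge. From each list up to 4 genes per direction and comparison could be named, those with the largest change among genes with an adjusted p under 0.05 and at least 5 CPM in the higher group, plus SIK1, PDK4 and the 8 genes most like the mean NR4A profile. Genes named for their EV-Control order were chosen after their values were seen. Replicate numbers did not pair libraries, with correlations of same-numbered deviations between -0.166 and 0.0673. Replicate libraries differed beyond sampling noise, with a chi-square per gene of 2.04 to 12.9 within groups. Simulated data were used to test the edgeR step for TNF against Control (15306 genes), where it found 89 of 100 genes changed by 1 and 97 of 100 changed by 2 on the log2 scale, with 7 false calls. The simulation gave every gene the same dispersion, so these rates may not hold for genes with more spread between libraries. Other settings were relative log expression factors, total counts only, no count filter, a mean of at least 50 counts, DESeq2 1.42.0, the replicate number as a block, only the 2 groups or all 30 libraries in the fit, and leaving out each library. Promoter windows are RefSeq's on GRCh38.p14.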

Additional observations from a re-analysis of the deposited data

Results flagged for a closer look

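The direct and the vesicle response to TNF went opposite ways in every library of the 3 genes, each against its own control. NR4A1 was at 0.39 with TNF against Control and at -0.68 with EV-TNF against EV-Control on the log2 scale. NR4A2 was at 1.25 and -1.18, and NR4A3 at 0.68 and -4.28. EV-TNF was counted as used in the choice of the genes, which favours falls from EV-Control, so the opposite direction is a description only. The share of all genes with opposite responses was not counted. Mean levels in EV-TNF were above Control for NR4A1 (259 and 191 CPM) and NR4A2 (147 and 112 CPM) and below it for NR4A3 (4.21 and 12.5 CPM). The difference between the 2 responses was not tested. The EV-TNF values rest on EV-Control, whose libraries are spread, and the NR4A3 value was -3.69 without EV-Control replicate 1 and -4.69 without EV-Control replicate 3.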

How the results depend on the processing

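No member changed direction under any setting run. With total counts only, NR4A1 with TNF was at 0.12 (edgeR adjusted p = 0.146), and all genes split into 2283 higher and 7783 lower. With all 30 libraries in the fit NR4A3 with TNF was at 0.68 (edgeR adjusted p = 0.172), and with only the 2 groups NR4A3 in EV-Control against Control was at 2.71 (edgeR adjusted p = 0.0708). EV-TNF had 750 genes lower with only the 2 groups in the fit, against 1181. Against 2 higher and 6 lower for EV-C5a, there were 15 higher and 58 lower with no count filter, 0 higher and 3 lower in the fit of all 30 libraries, 3 lower with total counts only, 1 lower with a mean of at least 50 counts and 1 lower with only the 2 groups. The causes of these shifts were not tested. Leaving out each library gave -0.26 to -0.08 for NR4A1 and -0.58 to -0.15 for NR4A3 with Epinephrine, and 2 to 35 genes higher and 0 to 140 lower with EV-C5a, the highest of both without EV-Control replicate 3. NR4A3 ranged from -4.58 to -3.58 in EV-IL1b, -5.76 to -4.76 in EV-Epinephrine and 2.13 to 3.13 in EV-Control against Control, the values nearest 0 without EV-Control replicate 1. Replicate numbers did not pair the libraries, and with a replicate block no member changed its call (NR4A1, NR4A2 and NR4A3 with TNF at 0.39, 1.25 and 0.68) and no count over all genes moved beyond 1.5 times (EV-C5a 2 higher and 4 lower). Of 1250 counts of list genes under other settings, 1099 were within 1.5 times the reported count and 151 were not. With a prior count of 5 in place of 0.5, the log2 ratios to NR4A3 in EV-IL1b were 5.46 for NR4A1 and 5.59 for NR4A2, against 5.53 and 5.66. That shift was about the size of the SD for NR4A1 (0.07) and beyond the SD for NR4A2 (0.05). The ratio of NR4A1 to NR4A3 shifted more, but within its SD, from 4.58 to 4.27 in C5a and from 6.03 to 5.85 in EV-Epinephrine. Depth limits NR4A3 in C5a, IL1b and EV-Epinephrine, where a library held 14 to 50 counts.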
